A study of Mus musculus with 20 samples.

Results

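Siglecf, Ccr3, Il5ra, Csf2rb, Csf2rb2, Csf2ra, Il1rl1 and Cd24a encode receptors and surface proteins by which mouse eosinophils are recognised or through which they receive cytokine and chemokine signals. They were taken by gene name, and all 8 were found among the 50600 rows of each of the deposited tables, 1 for eosinophils and 1 for macrophages. Eosinophils and macrophages were sorted by flow cytometry from enzymatically digested colon of wild-type C57BL/6 mice, and the RNA of each sort was read by CEL-Seq, which counts the 3′ ends of polyadenylated transcripts. There were 7 libraries of tumor eosinophils and 2 of naive colonic eosinophils, 6 of tumor macrophages and 5 of naive colonic macrophages. The tumors followed an induction that the labels call CAC, and the naive mice had none. The labels name no inducing agent, age, sex or pooling of mice, and no sorting marker, so it is not known whether any of the 8 proteins served to gate the cells. Nothing in the labels says that libraries of a group came from separate animals, so the p-values measure the spread between these libraries, which may be technical.

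Siglec-F is a lectin that binds sialic acid and carries an inhibitory cytoplasmic motif, and it is the customary surface marker of mouse eosinophils together with CCR3, the receptor for eotaxins. Interleukin-5 keeps eosinophils alive through a private alpha chain, encoded by Il5ra, joined to the common beta chain encoded by Csf2rb, which also serves the receptors for GM-CSF (alpha chain Csf2ra) and interleukin-3. Mice carry a second beta chain gene, Csf2rb2, whose product serves interleukin-3 only. Il1rl1 encodes ST2, the receptor for the alarmin interleukin-33, and Cd24a encodes a small lipid-anchored sialoglycoprotein of granulocytes, B cells and epithelium.

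Recovered depth was 1978466 to 8520874 reads in tumor eosinophil libraries and 4452513 and 7469714 in naive eosinophil libraries, and 2289383 to 7636153 in tumor macrophages against 1477255 to 7945096 in naive macrophages. Mitochondrial transcripts took 15.2 to 35.2% of reads in tumor eosinophils, against 17.9 and 24.5% in naive eosinophils, and tumor eosinophil libraries 2 and 3 were the highest at 34.9 and 35.2%. The granule protein list (6 of 6 genes detected) summed to 340 to 8712 CPM (reads scaled to a common library size) in tumor eosinophils and 214 and 257 CPM in naive eosinophils, with Prg2, the major basic protein gene, the most abundant. In tumor macrophages the same list summed to 1.96 to 31.0 CPM, and in naive macrophages to 21.7 to 52.3 CPM. Macrophage markers (12 of 12 genes detected) summed to 705 to 1370 CPM in tumor eosinophils and 336 and 497 CPM in naive eosinophils, against 19503 CPM or more in every macrophage library. The neutrophil list summed to 4816 to 14694 CPM in tumor eosinophils and 6478 and 11526 CPM in naive eosinophils, mostly Retnlg, with Elane and Mpo at 0 in both naive libraries. The mast cell list, mostly Hdc, summed to 238 to 1007 CPM in tumor eosinophils and 61.6 and 63.8 CPM in naive eosinophils, where Mcpt4, Tpsb2 and Tpsab1 were at 0. Basophil genes summed to 0 to 12.1 CPM in tumor eosinophils and all 5 were at 0 in naive eosinophils. B and plasma cell genes summed to 5399.8 to 13878 CPM in tumor eosinophils and 3491 and 5589 CPM in naive eosinophils, and epithelial genes to 1945 to 5952 CPM in tumor and 1658 and 2677 CPM in naive eosinophils. T cell and innate lymphoid genes (22.3 to 92.5 CPM in tumor, 20.9 and 25.3 in naive eosinophils), dendritic cell genes (4.24 to 25.9 in tumor, 4.42 and 8.09 in naive), stromal genes (262 to 1157 in tumor, 599.9 and 1013 in naive) and red cell genes (566 to 1734 in tumor, 790.3 and 2529 in naive) overlapped between the groups.

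In tumor eosinophils, 5 of the 8 genes fell and none rose. Siglecf, Ccr3, Il5ra, Il1rl1 and Cd24a were each lower in all 7 tumor libraries than in both naive libraries, with log2 changes of −1.28 to −2.24. The GM-CSF receptor alpha chain Csf2ra and the common beta chain Csf2rb did not pass the test, and their groups overlapped. A gene was called at an adjusted p under 0.05 in limma's moderated test on log2(value + 1), adjusted by the Benjamini-Hochberg method over all 12984 genes tested in eosinophils. In this comparison 2.21% of all genes were called lower, 2.42% higher and 4.63% in either direction. At an unadjusted p under 0.05 limma had 6 of the 8 genes lower and 0 higher. The adjusted test of edgeR called 5 lower and 0 higher, and that of DESeq2 6 lower and 0 higher. The shares above are of limma's adjusted calls and are no measure for these counts. Over all genes DESeq2 called more than limma. The median log2 change was −1.40 over the 8 genes and 0.01 over all genes tested. With Csf2rb2, 6 of the 8 genes had groups that did not overlap, all lower, where 9.77% of all genes did so in the lower direction and 7.32% in the higher. In sorted bulk samples, fewer cells that express a gene and less of its RNA per cell cannot be told apart.

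The 5 genes that fell lie on different chromosomes, and the promoters of those found in RefSeq are shown for the GATA words they hold, since GATA1 directs eosinophil development. Promoter entries were found for 6 of the 8 genes. Each line gives the 250 bases before an annotated start, 5′ to 3′ on the strand of the gene, in build GRCm38.p6, with capitals marking the word AGATAA, the word AGATAG, the word TGATAA or the word TGATAG on either strand.
Siglecf, chr7:43351091-43351340, plus strand: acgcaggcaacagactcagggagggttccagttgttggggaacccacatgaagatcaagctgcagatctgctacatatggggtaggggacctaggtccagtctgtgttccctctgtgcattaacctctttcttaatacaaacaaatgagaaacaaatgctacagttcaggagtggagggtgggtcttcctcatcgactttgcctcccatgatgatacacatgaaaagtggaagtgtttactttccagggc
Ccr3, chr9:124021721-124021970, plus strand: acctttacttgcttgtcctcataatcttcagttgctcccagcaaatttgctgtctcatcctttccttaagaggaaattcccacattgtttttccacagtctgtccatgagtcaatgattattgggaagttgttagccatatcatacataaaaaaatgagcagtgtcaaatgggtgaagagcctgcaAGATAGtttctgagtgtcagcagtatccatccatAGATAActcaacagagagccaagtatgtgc
Il5ra, chr6:106749038-106749287, minus strand: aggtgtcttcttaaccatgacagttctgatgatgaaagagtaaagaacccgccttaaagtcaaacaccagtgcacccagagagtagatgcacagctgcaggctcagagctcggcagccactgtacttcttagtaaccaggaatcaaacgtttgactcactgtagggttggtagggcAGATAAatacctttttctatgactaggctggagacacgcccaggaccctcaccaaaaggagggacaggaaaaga
Il1rl1 first start, chr1:40429320-40429569, plus strand: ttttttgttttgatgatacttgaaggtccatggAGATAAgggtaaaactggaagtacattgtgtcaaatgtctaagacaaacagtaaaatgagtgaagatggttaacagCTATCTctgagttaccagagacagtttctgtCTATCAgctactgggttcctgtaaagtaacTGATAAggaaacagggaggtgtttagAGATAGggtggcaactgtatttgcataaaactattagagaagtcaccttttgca
Il1rl1 second start, chr1:40439379-40439628, plus strand: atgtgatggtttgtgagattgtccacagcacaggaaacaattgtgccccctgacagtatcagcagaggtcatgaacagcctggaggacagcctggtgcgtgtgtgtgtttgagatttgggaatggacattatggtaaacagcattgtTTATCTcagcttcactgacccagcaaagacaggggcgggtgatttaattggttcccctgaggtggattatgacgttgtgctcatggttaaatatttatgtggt
The window of Ccr3 holds 2 such words, that of Il5ra 1 and that of Siglecf 0. At Il1rl1, a gene with an upstream and a downstream start, the upstream window holds 5 and the downstream window 1. Among all 32851 RefSeq mouse promoters of that length, 26.5% hold at least 1. Csf2rb2 also holds 1 and Csf2ra 0, so the words are found both among the genes that fell and outside them. A 3′ method does not show which start was used.

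Siglecf (GRCm38, chromosome 7, 43351341 to 43359531, plus strand) had 232, 427 and 611 normalised reads as the lowest, median and highest tumor eosinophil value, against 872 and 2312 in naive eosinophils. Every tumor library lay below both naive libraries, and the naive pair were themselves far apart. The means were 402 ± 133 in tumor and 1592 ± 1018 in naive eosinophils (SD, n = 7 and 2), a log2 change of −1.89 ± 0.42 (SE, limma adjusted p = 0.0249).

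Ccr3 (chromosome 9, 124021972 to 124031689, plus strand), the eotaxin receptor, had a lowest, median and highest value of 648, 1283 and 1519 normalised reads in tumor eosinophils, against 2613 and 4154 in naive eosinophils. The groups did not overlap. Its log2 change was −1.52 ± 0.36 (SE, limma adjusted p = 0.0307), with means of 1197 ± 336 in tumor and 3383 ± 1090 in naive eosinophils (SD, n = 7 and 2).

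Il5ra (chromosome 6, 106710357 to 106749037, minus strand), the interleukin-5 receptor alpha chain, had 69.2, 130.0 and 211 normalised reads as the lowest, median and highest tumor eosinophil value, and 340 and 607 in naive eosinophils. All tumor libraries were below the lower naive library. The log2 change was −1.82 ± 0.42 (SE, limma adjusted p = 0.0300), with means of 137 ± 51.0 in tumor and 474 ± 189 in naive eosinophils (SD, n = 7 and 2). Of the 451 words of 50 bases in the last 500 bases of its transcript, 24 also occur in another gene, mostly Gm47624, so a small part of its reads could belong elsewhere.

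Il1rl1 (chromosome 1, 40429570 to 40465415, plus strand), the interleukin-33 receptor ST2, showed the lowest log2 change of the 8 genes. Its lowest, median and highest values were 357, 542 and 804 normalised reads in tumor eosinophils, against 1904 and 3537 in naive eosinophils. The highest tumor library stayed well under the lower naive library. The means of 564 ± 133 in tumor and 2721 ± 1154 in naive eosinophils (SD, n = 7 and 2) gave a log2 change of −2.24 ± 0.33 (SE, limma adjusted p = 0.00351).

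Cd24a (chromosome 10, 43578284 to 43584265, plus strand), a ligand of the inhibitory lectin Siglec-G, had 6317, 8692 and 13198 normalised reads as the lowest, median and highest tumor eosinophil value, against 20837 and 23371 in naive eosinophils. The naive libraries lay close together and above every tumor library. The log2 change was −1.28 ± 0.32 (SE, limma adjusted p = 0.0379), with means of 9277 ± 2197 in tumor and 22104 ± 1792 in naive eosinophils (SD, n = 7 and 2).

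Csf2ra (chromosome 19, 61223957 to 61228429, minus strand), the GM-CSF receptor alpha chain, had 2650, 4860 and 8102 normalised reads as the lowest, median and highest tumor eosinophil value, against 4832 and 8367 in naive eosinophils. The ranges overlapped over most of their length, and the log2 change of −0.33 ± 0.42 (SE) had a limma adjusted p of 0.716. Csf2rb (chromosome 15, 78325752 to 78353847, plus strand), the common beta chain, had 884, 2210.1 and 2907 normalised reads in the same order in tumor eosinophils, against 1955 and 3004 in naive eosinophils. One naive library lay inside the tumor range and the other just above it, and the log2 change was −0.42 ± 0.43 (SE, limma adjusted p = 0.629).

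Csf2rb2 (chromosome 15, 78282507 to 78305721, minus strand), the interleukin-3 beta chain, had 110, 198 and 332 normalised reads as the lowest, median and highest tumor eosinophil value, against 408 and 607 in naive eosinophils. The groups did not overlap, but the log2 change of −1.29 ± 0.41 (SE) missed the threshold with a limma adjusted p of 0.101. It was called in 2 of 16 alternatives, among them DESeq2 on the recovered reads (adjusted p = 0.0480), and in 0 of the 9 fits that each left out 1 library.

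**Figure D1:**
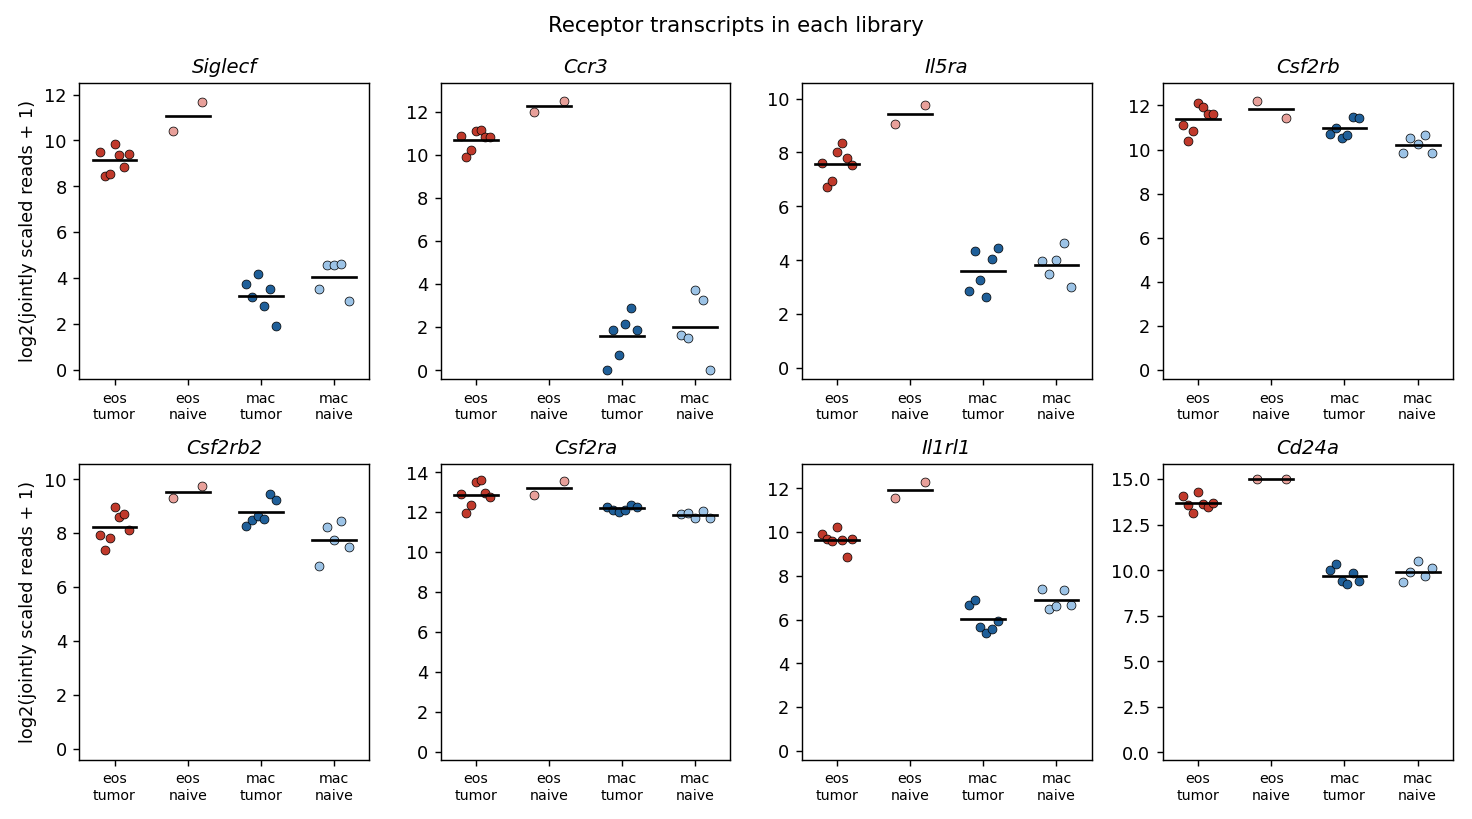
Each point is 1 library, plotted as log2(jointly scaled reads + 1) for eosinophils and macrophages from tumor and naive colon, and the bar is the group mean. The tumor eosinophil points lie below both naive eosinophil points for Siglecf, Ccr3, Il5ra, Csf2rb2, Il1rl1 and Cd24a, and overlap them for Csf2rb and Csf2ra.

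The naive group has 2 libraries, and naive library 2 was the higher of them for every one of the 8 genes except Csf2rb. Without it the naive arm has a single library, assumed to vary like the others, and the 5 calls were lost. Without tumor library 1, 2 of the 8 genes were called, Siglecf and Il1rl1, with limma adjusted p-values of 0.0532 for Ccr3, 0.0535 for Il5ra and 0.0580 for Cd24a. For Siglecf the log2 change ran from −2.59 to −1.19 over the 9 fits that each left out 1 library, and 8 of those 9 called it. Il1rl1 was also called in 8 of 9 and had a limma adjusted p of 0.0696 without naive library 2. Cd24a was called in 2 of the 9 fits, those without tumor library 2 or 4, with limma adjusted p-values of 0.0554 to 0.268 in the others, and with TMM scaling 4 of the 8 genes were called. Tumor libraries 2 and 3, those with the highest mitochondrial shares, held the lowest tumor values of Siglecf, Ccr3, Il5ra, Csf2rb and Csf2ra. With both left out, the 5 calls were made again.

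**Figure D2:**
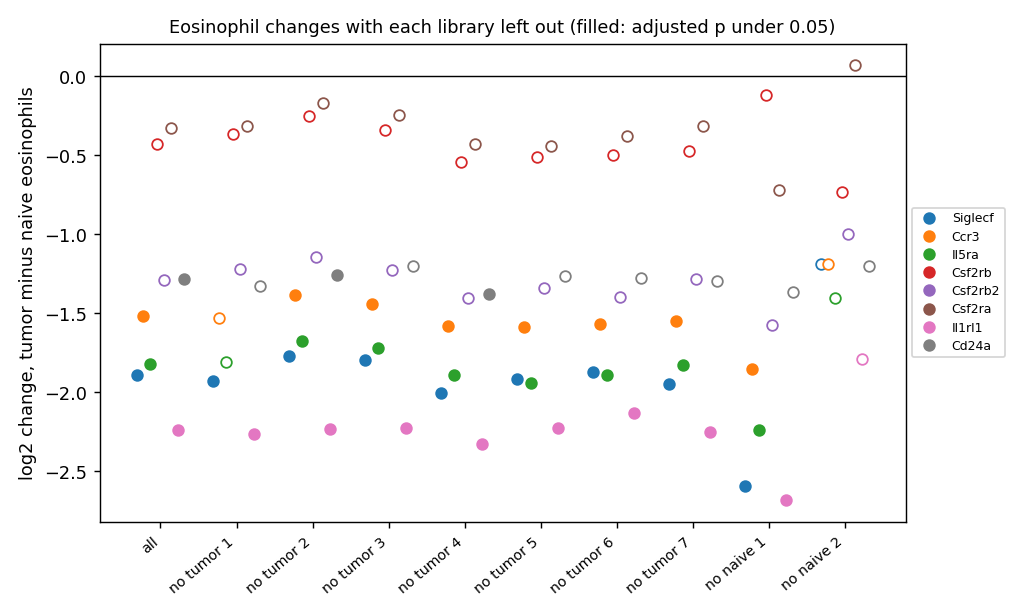
The y axis is the log2 change of tumor minus naive eosinophils, and the x axis names the library left out, with the fit on all libraries at the left. Filled points had a limma adjusted p under 0.05. All points of the column without naive library 2 are open, and Csf2ra stands at 0.071 there, above 0.

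Other transcripts moved with the 5 receptors in tumor eosinophils. The macrophage list was higher in all 7 tumor libraries than in both naive libraries, the mast cell list likewise, and the eosinophil lineage list was lower, at 303 to 732 CPM in tumor and 816 and 1041 CPM in naive eosinophils, mostly Alox15. The granule list, mostly Prg2, was higher in all 7 tumor libraries. Of its 6 genes limma called 0 (4 higher at an unadjusted p under 0.05, 0 by edgeR and 2 higher by DESeq2). Prg3, Epx, Ear1 and Ear2 passed the filter only through tumor libraries, so these counts are not read as a rise and no list median is given. Prg2 had a log2 change of 1.73 (limma adjusted p = 0.370) and Ear6 one of 2.30 (limma adjusted p = 0.140). Among neutrophil genes, Lcn2 (log2 change 4.50), Ltf (4.62), S100a8 (4.42) and S100a9 (4.37) were called higher, with limma adjusted p-values of 0.00548 or less. Retnlg, by far the most abundant gene of that list, did not rise (−0.35, limma adjusted p = 0.742), nor did Mmp9 (−0.58, limma adjusted p = 0.604). The sum of the neutrophil list overlapped between the groups. In tumor eosinophils limma called 0 of the 6 genes of that lineage list (4 lower at an unadjusted p under 0.05, 0 by edgeR and 2 lower by DESeq2), Gata1 having a log2 change of −1.34 (limma adjusted p = 0.117) and Alox15 −1.39 (limma adjusted p = 0.0673), while Cebpa had 0.94 (limma adjusted p = 0.340) and Id2 0.52 (limma adjusted p = 0.542). The part of all these in the receptor changes was not tested.

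In macrophages the beta chains were called higher in tumors and Il1rl1 lower, calls that single libraries or the filter could end. Of the 8 genes, 7 passed the filter on low values, 2 were called higher and 1 lower. Over all 11536 macrophage genes tested, 8.49% were called higher and 8.61% lower, 17.1% in all. All 7 had overlapping groups, where 5.19% of all genes did not overlap in the higher direction and 5.47% in the lower. The median log2 change was −0.28 over the 7 genes and 0.02 over all genes.

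Csf2rb2 had 259, 297 and 548 normalised reads as the lowest, median and highest tumor macrophage value, and 92.7, 237, 181, 276 and 158 in the 5 naive macrophage libraries. Only the highest naive library reached into the tumor range. The means were 357 ± 119 in tumor and 189 ± 71.0 in naive macrophages (SD, n = 6 and 5), a log2 change of 0.95 ± 0.26 (SE, limma adjusted p = 0.0220). Csf2rb had 1162, 1498 and 2204 in tumor macrophages, in the same order, and 785, 1154, 1040, 1274 and 798 normalised reads in naive macrophages. Again the highest naive library alone reached into the tumor range, and the log2 change was 0.66 ± 0.19 (SE, limma adjusted p = 0.0273). Csf2ra had 3262, 3647 and 4062 normalised reads in tumor macrophages and 3349, 3181, 2805, 3356 and 2953 in naive macrophages, with a log2 change of 0.23 ± 0.11 (SE, limma adjusted p = 0.187).

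Il1rl1 had 30.9, 42.6 and 93.3 normalised reads as the lowest, median and highest tumor macrophage value, against 143, 69.6, 81.1, 130.2 and 88.0 in naive macrophages. The tumor range reached into the lower naive values. The log2 change was −0.95 ± 0.30 (SE, limma adjusted p = 0.0392), and the call was made in 7 of 17 alternatives. It was lost without naive macrophage library 1, 3, 4 or 5 and without tumor macrophage library 3, 4, 5 or 6, with limma adjusted p-values of 0.0515 to 0.0934. The call of Csf2rb was lost without naive library 1 or 5 or tumor library 5 or 6 (0.0623 to 0.0744), and that of Csf2rb2 without naive library 5 or tumor library 5 or 6 (0.0509 to 0.0526). Without the filter on low values, Csf2rb had a limma adjusted p of 0.0534 and Il1rl1 one of 0.0659, and Csf2rb2 was still called. T cell and innate lymphoid genes summed to 187 to 257 CPM in tumor macrophages and 449 to 592 CPM in naive macrophages, without overlap, and most of that gap was Cd4. It was the one gene called of the 5 tested on that list (log2 change −2.12, limma adjusted p = 1.74e-05), while Il7r averaged 59.2 CPM in tumor and 39.5 CPM in naive macrophages. In tumor macrophages, 4 of 6 dendritic cell genes and 3 of 3 red cell genes were called lower, where 8.61% of all macrophage genes were. Of 11 epithelial genes 5 were called higher, against 8.49% of all macrophage genes. The dendritic cell gene Ccr7 (0.88, limma adjusted p = 0.106) and the epithelial gene Muc2 (−1.45, limma adjusted p = 0.0659) went the other way. The mast cell list summed to 51.2 to 431 CPM in tumor and 18.0 to 33.4 CPM in naive macrophages. The neutrophil list summed to 140.0 to 881 CPM in tumor macrophages and 44.7 to 70.4 CPM in naive macrophages. The part of these genes' sources in the values of Il1rl1, Csf2rb and Csf2rb2 was not tested.

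Siglecf, Il5ra and Ccr3 had few reads in macrophages. Siglecf had 2.09, 7.19 and 13.4 normalised reads as the lowest, median and highest value in tumor macrophages, against 8.92, 17.9, 19.3, 18.8 and 6.07 in naive macrophages, and the log2 change was −0.89 ± 0.46 (SE, limma adjusted p = 0.205). Il5ra had 4.03 to 16.2 in tumor and 6.07 to 18.8 normalised reads in naive macrophages, with a log2 change of −0.28 ± 0.42 (SE, limma adjusted p = 0.703). For Ccr3 the 6 tumor macrophage libraries held 22 reads in all and the 5 naive ones 25, and it did not pass the filter. Cd24a had 472 to 1003 normalised reads in tumor macrophages and 558 to 1213 in naive macrophages, with a log2 change of −0.29 ± 0.23 (SE, limma adjusted p = 0.438).

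**Figure D3:**
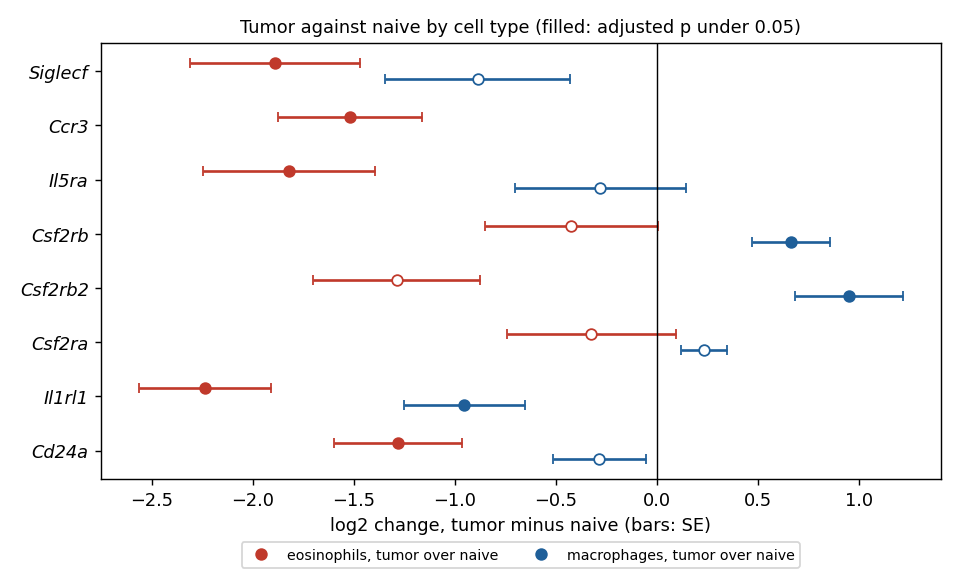
Log2 changes of tumor minus naive on the x axis with SE bars, eosinophils above macrophages for each gene. Filled points had a limma adjusted p under 0.05. Csf2rb and Csf2rb2 lie left of 0 in eosinophils and right of 0 in macrophages, and Ccr3 has no macrophage point because it did not pass the filter.

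Whether the tumor effect differed between the cell types was tested on jointly scaled reads of all 20 libraries. Of the 7 genes that passed the filter in both cell types, 1 was called, Csf2rb2, with an eosinophil effect minus macrophage effect of −2.35 ± 0.50 on the log2 scale (SE, limma adjusted p = 0.00939). Of all 15620 genes in the joint fit, 2.11% were called lower, 1.79% higher and 3.91% in either direction. Csf2rb had a difference of −1.20 (limma adjusted p = 0.155), Il1rl1 −1.39 (limma adjusted p = 0.104), Cd24a −1.11 (limma adjusted p = 0.108) and Il5ra −1.64 (limma adjusted p = 0.156). For Siglecf it was −1.08 (limma adjusted p = 0.402) and for Csf2ra −0.67 (limma adjusted p = 0.379). Ccr3 entered this fit through its eosinophil libraries, and its macrophage side rests on 22 and 25 reads in all, so no difference is given for it. The call of Csf2rb2 was made in 26 of 27 alternatives. It was lost without naive eosinophil library 2, at −2.07 with a limma adjusted p of 0.131.

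The transcripts of Csf2rb and Csf2rb2 are 91.2% identical over 4674 aligned bases (4263 identical), and their last 500 bases, where CEL-Seq reads fall, are 83.1% identical over the aligned part. None of the 451 words of 50 bases in the last 500 bases of either transcript occurs elsewhere in the transcriptome. The labels do not say how reads matching both genes were counted, so the division between them is uncertain to that extent. Csf2rb2 took 10.2 ± 1.27% of the reads of both beta chain genes in tumor eosinophils (SD, n = 7), against 11.95 and 23.7% in the 2 naive eosinophil libraries. The difference of −7.64 percentage points had a two-sided exact permutation p of 0.0556, the smallest that 7 against 2 libraries allow, and ran from −13.5 to −1.77 with 1 library left out. In macrophages the share was 18.0 ± 2.38% in tumor and 15.4 ± 2.89% in naive libraries (SD, n = 6 and 5), and the difference of 2.66 percentage points had a two-sided exact permutation p of 0.130.

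**Figure D4:**
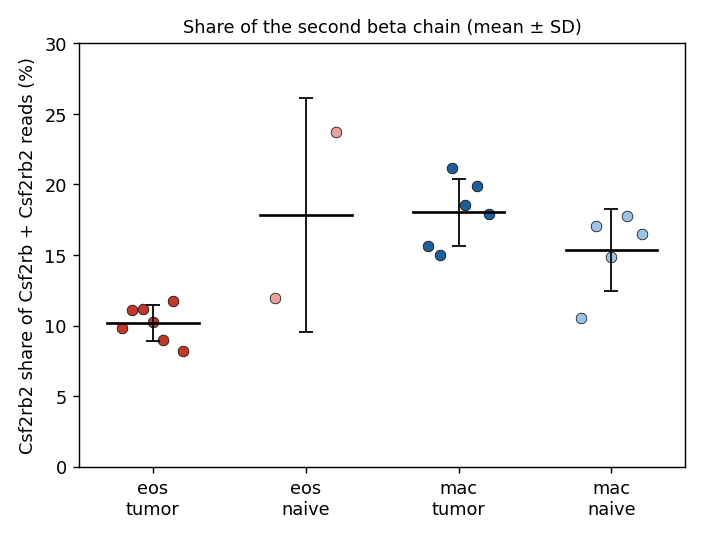
The y axis is the share of Csf2rb2 in the reads of Csf2rb and Csf2rb2 together, in percent, with 1 point per library and bars for the mean ± SD. Tumor eosinophils sit at 8.23 to 11.7%, the naive eosinophil libraries stand at 11.95 and 23.7%, and the macrophage groups overlap.

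Across cell types, 5 of the 8 genes were far higher in eosinophils and the 3 GM-CSF and interleukin-3 receptor chains were nearer to their macrophage level. On the joint scale, tumor macrophages held 0.152% of the tumor eosinophil level of Ccr3, 1.59% of Siglecf, 6.31% of Il5ra, 6.34% of Cd24a and 8.35% of Il1rl1. In naive macrophages the same figures were 0.0984% of the naive eosinophil level of Ccr3, 0.743% of Siglecf, 2.02% of Il5ra, 3.04% of Cd24a and 3.07% of Il1rl1. The 3 chains stood closer. Tumor macrophages held 58.8% of the tumor eosinophil level of Csf2ra, 72.6% of Csf2rb and 144% of Csf2rb2, where naive macrophages held 38.7%, 32.8% and 30.7% of the naive eosinophil level of those chains.

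Tumor eosinophils were higher than tumor macrophages for 6 of the 8 genes in the joint limma fit, where 18.4% of all genes were higher, 23.3% lower and 41.7% differed. The log2 differences were 5.92 for Siglecf, 3.99 for Cd24a, 3.96 for Il5ra, 3.63 for Il1rl1 and 0.67 for Csf2ra, the last with the highest limma adjusted p of the 6, 0.0152. The beta chains did not pass the test there, at 0.40 for Csf2rb (limma adjusted p = 0.210) and −0.55 for Csf2rb2 (limma adjusted p = 0.118). Naive eosinophils were higher than naive macrophages for 8 of the 8 genes, where 14% of all genes were higher, 14.9% lower and 28.9% differed. The log2 differences there were 1.60 for Csf2rb, 1.80 for Csf2rb2 and 1.34 for Csf2ra, and ran up to 10.25 for Ccr3. Without naive eosinophil library 1 the limma adjusted p of Csf2rb was 0.0551, and without library 2 that of Csf2ra was 0.0920.

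Targets of STAT5, the factor that beta chain receptors activate, split in tumor eosinophils. Of the 9 genes of that list, 3 were called higher, Myc among them, and 1 lower. Of all eosinophil genes 2.42% were called higher and 2.21% lower, and the list median was −0.28 on the log2 scale. The survival gene Bcl2l1 had a log2 change of 1.87 ± 0.37 (SE, limma adjusted p = 0.0147). The feedback inhibitor Socs3 had 1.82 ± 0.37 (SE, limma adjusted p = 0.0167). Myc, listed at 0 in both naive libraries, had 4.45 to 15.1 normalised reads in tumor eosinophils. Because Myc passed the filter only through tumor libraries, its call (limma adjusted p = 0.0414, made in 3 of 14 alternatives) is not read as a rise. Socs2, another feedback inhibitor of cytokine receptors, fell to 226 ± 104 normalised reads in tumor eosinophils, against 1324 and 1709 in naive eosinophils, a log2 change of −2.86 ± 0.44 (SE, limma adjusted p = 0.0046). In tumor macrophages Socs2 rose, to 421 ± 70.9 normalised reads against 210.3 ± 50.2 in naive macrophages (SD, n = 6 and 5; log2 change 1.02 ± 0.17, SE, limma adjusted p = 0.000652). Its effects differed between the cell types by −3.99 ± 0.46 (SE, limma adjusted p = 1.44e-05). Osm, which encodes oncostatin M and is also induced through STAT5, differed by −3.15 ± 0.40 (SE, limma adjusted p = 6.25e-05), rising in tumor macrophages by 1.90 (limma adjusted p = 1.46e-05) and not passing the test in eosinophils (−1.14, limma adjusted p = 0.0669). Socs1 also rose in tumor macrophages, by 1.01 (limma adjusted p = 0.0452, a call made in 9 of 17 alternatives), so that 3 of 9 targets were called higher there, where 8.49% of all genes were, and 0 lower.

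The ligands had few or no reads. Il3 was listed at 0 in all 20 libraries, and Il5 and Csf2 reached at most 3.1 and 1.88 normalised reads in any library. Il3ra, the interleukin-3 receptor alpha chain, had 7.91 to 138 normalised reads in tumor eosinophils and 7.25 and 16.8 in naive eosinophils, a log2 change of 1.89 ± 0.78 (SE, limma adjusted p = 0.198). In macrophages it had 61.2 to 110.2 normalised reads in tumor and 65.6 to 127 in naive libraries, and its log2 change was −0.05 ± 0.22 (SE, limma adjusted p = 0.905). Of the kinases and adaptors that carry beta chain signals, 0 of 11 tested were called in eosinophils and 0 of 12 in macrophages, with list medians of −0.31 and −0.11. At an unadjusted p under 0.05, limma had Jak1 and Stat5b lower in eosinophils and none in macrophages, and edgeR and DESeq2 called 0 in either.

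Of the chemokines listed as CCR3 ligands, whose binding in mouse was not checked, 3 were tested in eosinophils. Limma called 0 of them, edgeR 0 and DESeq2 2, Ccl7 and Ccl8, both also under 0.05 unadjusted in limma. Ccl8 had a log2 change of 2.18 ± 0.58 (SE, limma adjusted p = 0.0503) and Ccl7 one of 2.02 ± 0.55 (SE, limma adjusted p = 0.0565). In tumor macrophages Ccl7 fell by 2.68 on the log2 scale (limma adjusted p = 4.86e-06) to 129 ± 47.7 normalised reads, against 793 ± 165 in naive macrophages, and Ccl5 rose by 1.06 (limma adjusted p = 0.0489), a call made in 6 of 17 alternatives. The eotaxin Ccl24 had 13.5 to 161 normalised reads in tumor macrophages and 3.04 to 221 in naive macrophages, and the eotaxin Ccl11 reached at most 18.2 in any library. Il33 had 0 to 31.7 normalised reads in tumor eosinophils and 0 and 1.16 in naive eosinophils. Its co-receptor chain Il1rap had a log2 change of 1.09 in eosinophils (limma adjusted p = 0.299) and 0.35 in macrophages (limma adjusted p = 0.368). Of 13 interleukin-33 pathway genes, limma called 0 in eosinophils, edgeR 0 and DESeq2 1 higher and 1 lower. At an unadjusted p under 0.05 limma had 2 higher and 1 lower. These unadjusted and DESeq2 counts lack a share of all genes and are not read as a result. Of 12 pathway genes in macrophages 1 was called higher, a share near the 8.49% of all macrophage genes called higher. It was Irak3, an inhibitor of that pathway, at 1.21 (limma adjusted p = 0.00101).

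Of the other sialic acid lectins, 1 of 5 tested fell in tumor eosinophils, where 2.21% of all genes were called lower. It was Siglecg, the inhibitory lectin that binds CD24, at 359 ± 123 normalised reads in tumor eosinophils and 1169 and 1772 in naive eosinophils, a log2 change of −2.07 ± 0.37 (SE, limma adjusted p = 0.00908). In tumor macrophages, where 8.61% of all genes were called lower, 4 of 6 fell, Siglech by 1.85, Siglecg by 1.29 (called in 10 of 17 alternatives), Siglec1 (sialoadhesin) by 0.84 and Cd33 by 0.47 on the log2 scale. Among other surface proteins of eosinophils, 3 of 19 tested fell in tumor eosinophils, against the same 2.21%, and limma, edgeR and DESeq2 called 0 higher (1 at an unadjusted p under 0.05 in limma). They were Adgre1, which encodes F4/80, at −2.20 ± 0.40 (SE, limma adjusted p = 0.00963), the hyaluronan receptor Cd44 at −1.81 ± 0.42 (SE, limma adjusted p = 0.0300) and the gut-homing integrin chain Itgb7 at −1.43 ± 0.38 (SE, limma adjusted p = 0.04998), the last called in 7 of 16 alternatives. All 3 also fell in tumor macrophages, among 5 of 19 there against 8.61% of all genes, while Cd300lf and Cd63 rose (8.49% of all genes did).

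Other cytokine receptors were described from a list of 28. Of 25 tested in eosinophils, limma called 4 higher and 0 lower (2 lower at an unadjusted p under 0.05, 0 by edgeR and 1, Il17ra, by DESeq2), where 2.42% of all genes were called higher and 2.21% lower. The list median was 0.46. Il13ra1, a chain of the interleukin-13 receptor, had 47.2 to 114 normalised reads in tumor eosinophils and 8.12 and 12.1 in naive eosinophils, a log2 change of 2.53 ± 0.42 (SE, limma adjusted p = 0.00625). The G-CSF receptor Csf3r had 90.5 to 404 in tumor and 33.8 and 53.4 normalised reads in naive eosinophils (log2 change 2.47 ± 0.52, SE, limma adjusted p = 0.0204). Tnfrsf1a, a receptor for tumor necrosis factor, rose by 1.90 (limma adjusted p = 0.0323) and the interferon-gamma receptor chain Ifngr2 by 1.26 (limma adjusted p = 0.0357). Without naive library 2, Il13ra1 was still called (2.79, limma adjusted p = 0.0442), and the other called genes of the pathway lists were not, Siglecg having a limma adjusted p of 0.0548 and Socs2 one of 0.0852. Leaving out other single libraries also ended the calls of Ifngr2 (kept in 3 of 9 such fits), Tnfrsf1a (4 of 9), Itgb7 (2 of 9) and Cd44 (7 of 9). Csf3r is abundant in neutrophils, and 5 of the 14 neutrophil genes, Csf3r among them, were called higher in tumor eosinophils. The part of neutrophils in its change was not tested. In macrophages 2 of 27 rose, Il17ra and Il2rg, and 3 fell, Il6st, Il6ra and Flt3, a share near the 17.1% of all macrophage genes called.

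Genes with the most similar pattern were found for each receptor by the root-mean-square difference of centred log2 values over the 20 libraries, which are of 4 groups and so mainly reflect the step between cell types. For Ccr3 they were F5 (1.11), Gata1 (1.15) and Alox15 (1.35). Adgre4 and Ccl6 were among the 3 nearest of both Il5ra (0.56 and 0.61) and Il1rl1 (0.62 and 0.55), and Ccl6 was also near Cd24a (0.41), whose nearest was Tmem154 (0.37). For Siglecf the nearest with a common symbol were Ldhc (0.73) and Gapt (0.80). For the shared receptor chains they were Actg1 for Csf2ra (0.21), Dusp5 for Csf2rb (0.25) and Cisd2 for Csf2rb2 (0.35). The measure scales with a gene's own spread, an SD of 0.59 for Csf2ra and 4.73 for Ccr3 over the 20 libraries, so it does not rank the receptors against each other.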

How the data were processed

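Each sample was prepared for CEL-Seq as 3 technical replicates, per the labels' protocols. The submitters' processing notes list HTSeq 0.6.1, DESeq2 1.14.1, TopHat2 2.1.0 and Bowtie2 2.2.6 with build GRCm38.p5. The merging of technical replicates, the annotation and the use of strand are not given in these sources. The authors deposited a normalised signal of gene read counts, 1 table per cell type. All 374526 non-zero values came out as whole reads within 0.1 read, which gave the depth. Rows named by a bare number (27) took up to 0.132% of the reads of a library.

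Values were tested as log2(value + 1), a scale that understates the change of low genes, with limma 3.58.1 in R 4.3.3 (trend, two-sided, a mean per group). Genes at 10 or more in 2 eosinophil or 5 macrophage libraries were kept, and p-values were adjusted by the Benjamini-Hochberg method. Across tables, recovered reads were scaled together by TMM (edgeR 4.0.16) and fitted in 1 model. Alternatives were a pseudocount of 5, no filter, other scalings, edgeR and DESeq2 1.42.0 on recovered reads, a replicate block and each library left out. Leaving out tumor eosinophil libraries 2 and 3 was chosen after seeing the data. Code was tested on simulated data. The 8 genes and all lists were chosen with earlier results of these data known. Of a pathway list, called genes are named, at most 4 in each direction, with ligands and partner chains always. List counts at an unadjusted p, or by edgeR or DESeq2, lack a share of all genes and are not read as results. Lists of T cell, B cell, dendritic, epithelial, stromal and red cell genes served as further markers.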

Additional observations from a re-analysis of the deposited data

Results flagged for a closer look

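The tumor effect on Csf2rb2 differed between the cell types. Its eosinophil effect minus its macrophage effect was −2.35 on the log2 scale (limma adjusted p = 0.00939), being lower in tumor eosinophils in 7 of 7 libraries than in both naive libraries and higher on average in tumor macrophages. The call rests on naive eosinophil library 2, without which the adjusted p was 0.131. Over the 8 genes in the 3 groups of 4 or more libraries, 24 combinations in all, no library stood apart from its group. The 2 naive eosinophil libraries are too few for that check.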

How the results depend on the processing

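The naive eosinophil group of 2 libraries limits every eosinophil result. For eosinophils 601 genes were called, 1363 in DESeq2, 1130 with a replicate block and 93 to 953 with 1 library left out. For macrophages 1972 were called, 1233 with the block and 1514 to 1937 with 1 left out. For the difference between cell types 610 were called, 403 without a filter, 1051 in DESeq2, 401 with the block and 164 to 1768 with 1 left out. Tumor eosinophils against tumor macrophages gave 6515 calls and 5720 to 6451 with 1 left out, and the naive pair gave 4512 calls, 2847 with the block and 3032 to 4517 with 1 left out. Of the 8 receptor genes, 5 were called in eosinophils, 3 without a filter and 0 to 5 with 1 library left out. In macrophages 3 were called, 1 without a filter, 0 with the block (Csf2rb 0.130, Csf2rb2 0.0626 and Il1rl1 0.0850 as adjusted p) and 0 to 3 with 1 left out. The Csf2rb2 share differed by −13.5 to −1.77 percentage points in eosinophils and by 1.46 to 3.27 in macrophages with 1 left out. Csf2ra in eosinophils turned to 0.071 without naive library 2, from a range of −0.72 to 0.071. The macrophage change of Il3ra, −0.05, was 0.011 with TMM scaling and ran from −0.16 to 0.074 with 1 library left out. Of the 601, 1972 and 610 calls, edgeR gave 532, 1949 and 588. The cause of these shifts was not tested. With 22 and 25 reads of Ccr3 in tumor and naive macrophages, a change of it there was not detectable at this depth. Same-numbered libraries did not deviate together in macrophages (correlations of −0.20 to 0.02), and the eosinophil numbers give 2 pairs only (0.12 and 0.10), so the block is not a pairing of animals.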
